A study of Homo sapiens with 12 samples.

Results

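Unirradiated A549 cells with TRIM22 knocked down (shTRIM22, sham irradiation) were set against A549 cells with a control hairpin 3 days after ionizing radiation (shControl, irradiated), to ask how much of the irradiated state the unirradiated knockdown cells already had and how much they lacked. The comparison rests on 3 libraries a group, chosen by their labels, which are 6 of the 12 RNA-seq libraries of the series. A549 is an established human line of non-small cell lung cancer. Both groups carry a stably introduced short hairpin RNA, and the labels give the shControl cells the genotype WT and the shTRIM22 cells the genotype TRIM22 knockdown. The 3 shControl libraries after sham irradiation served as the level of untreated cells, and the 3 irradiated shTRIM22 libraries entered the estimate of the spread alone. Since the compared groups differ in hairpin and in radiation at once, the parts of a difference that belong to each cannot be told apart in the direct comparison, and the untreated control is given beside it. The sources used here give no radiation dose, no harvest time of the sham cells and no word on whether a hairpin line is 1 clone. The 3 libraries of each group are biological replicates by the design text, which does not say that they were separate cultures, and the p-values therefore rest on the spread from library to library alone. In bulk RNA such as this, fewer cells of a type and less RNA per cell cannot be told apart.

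The counts summed to between 14468386 and 17872154 per library, and 17094 of 58735 annotated genes had enough reads to be tested. TRIM22 (ENSG00000132274, chromosome 11, 5689689 to 5737089, plus strand, hg38), the targeted gene and a p53- and interferon-inducible member of the tripartite motif family, checks the labels. It stood at 18.5, 17.8 and 16.6 CPM (counts scaled to the library size) in the irradiated control libraries 1, 2 and 3, and at 0.326, 0.304 and 0.293 CPM in the sham knockdown libraries. The groups were far apart, 55.8-fold, with a log2 difference of −5.80 ± 0.26 (SE; edgeR adjusted p = 3.16e-11), and untreated control cells lay between them at 2.83, 1.76 and 2.25 CPM. Library 3 of the sham knockdown stood apart from its group. Its counts differed from those of libraries 1 and 2 by a chi-square of 65.4 and 95.2 per degree of freedom, against 2.58 to 8.06 for the other pairs within groups, and 2.67% of its counts came from mitochondrially encoded genes, against 9.12% and 11.4% in its partners. Counts of called members in the direct comparison below are therefore given with and without it. Counts of the knockdown against the untreated control include it unless stated otherwise. Of 12 markers of the lung line 9 were tested. In the sham knockdown 2 of them were higher and 4 lower than in the irradiated control, against 26.1% and 25.2% over all genes. These 2 counts were the same without library 3. The summed level of the list was 10926 to 13673 CPM in the sham knockdown, 14457 to 15287 in the irradiated control and 11064 to 11639 in the untreated control. The alveolar markers NKX2-1, SFTPB and SFTPC had at most 5 counts in any library. Blood markers had too few reads to test, with CD3E at 0 in all libraries. Of 6 fibroblast markers 3 were tested, and they summed to 8.92 to 17.2 CPM in the sham knockdown and 8.34 to 8.92 in the irradiated control. COL3A1, a fibrillar collagen gene, was higher in the knockdown (1.96, 3.77 and 6.97 CPM against 0.708, 0.391 and 0.236, log2 difference 3.26 ± 0.51, adjusted p = 6.12e-05), while COL1A1, another collagen gene, stood at 5.06, 3.77 and 9.20 CPM against 5.87, 7.36 and 6.62 CPM (adjusted p = 0.675), and without library 3 there was 1 fibroblast marker higher and 1 lower. Of 4 endothelial markers 2 were tested. CDH5, an endothelial cadherin, was higher at 1.46 to 1.70 CPM (log2 1.68 ± 0.53, adjusted p = 0.0150), with 0, 6 and 17 counts in the irradiated control. PECAM1 did not pass, with 56, 47 and 50 counts in the knockdown against 58, 55 and 57. Of 5 kidney or cervix markers 4 were tested. The kidney factors PAX2 and PAX8 were lower by log2 differences of −1.13 ± 0.25 and −0.91 ± 0.29. CDH16 (95, 101 and 94 counts against 74, 62 and 85) and LHX1 did not pass. The part of these markers in the results was not tested.

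Ionizing radiation breaks DNA, and cells that keep p53 answer by stabilising it. p53 switches on CDKN1A, whose product p21 halts cyclin-dependent kinases. The retinoblastoma family and the DREAM complex then shut down the genes of DNA replication and mitosis, which are read out through E2F sites and through the cell-cycle homology region (CHR) of their promoters. Cells that stay arrested for days can take on a senescence-like state, with NF-kB-driven cytokine secretion and, in many cell types, interferon-stimulated genes. A549 cells carry p53 without mutation and lack the CDKN2A locus. In these libraries CDKN2A and CDKN2B had at most 1 and 0 counts.

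The unirradiated knockdown cells differed from the irradiated control cells in a large share of the transcriptome. Of 17094 genes 8774 (51.3%) passed an adjusted p of 0.05, 4460 higher (26.1%) and 4314 lower (25.2%) in the knockdown. For 2511 genes (14.7%) the difference was also at least 2-fold. For 5997 genes (35.1%) the 95% interval of the difference lay within 1.5-fold in either direction. In 9642 genes (56.4%) all 3 libraries of a group lay above all 3 of the other. Without library 3 of the sham knockdown, 9446 genes (54.0%) passed, 4752 higher (27.2%) and 4694 lower (26.8%), and 6654 (38.0%) lay within 1.5-fold. Counts of members in the gene lists below are to be read against these shares. For comparison, irradiation changed 3107 genes in the control cells (18.2%), 1820 upward (10.6%) and 1287 downward (7.53%), a total that was 5260 without library 3 of the sham knockdown, which enters the shared spread, and 5224 with the 2 control groups alone. The sham knockdown differed from the untreated control in 8116 genes (47.5%), 4342 higher (25.4%) and 3774 lower (22.1%). That total was 8692 without library 3 of the sham knockdown. The median log2 difference over all tested genes was 0.00, 0.01 and 0.02 in the 3 comparisons.

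The genes that moved with irradiation in control cells divide the question into what the knockdown cells had and what they lacked. The comparisons share libraries, so the numbers that follow are a description. Of the 1820 genes that rose after irradiation, 1048 (57.6%) stood lower in the sham knockdown than in the irradiated control, 257 (14.1%) stood higher still and 515 did not pass. For 741 of the 1820 the knockdown lay within 1.5-fold of the irradiated level, and for 785 it lay within 1.5-fold of the untreated level, some genes being within both limits. Over all tested genes the irradiated control lay within 1.5-fold of the untreated control in 53.1% and the sham knockdown in 37.2%. Their median log2 difference from the untreated control was 0.46 in irradiated cells and 0.14 in the knockdown. A change of at least 2-fold after irradiation was found in 2.53% of all genes. Among the 278 genes that rose that far, 13 were within 1.5-fold of the irradiated level and 28 within 1.5-fold of the untreated level, and the medians were 1.32 and 0.40. Of the 1287 genes that fell after irradiation, 850 (66.0%) stood higher in the sham knockdown than in the irradiated control and 151 (11.7%) stood lower still. Their medians were −0.47 in irradiated cells and 0.01 in the knockdown. Of the 154 that fell that far, 4 were within 1.5-fold of the irradiated level and 21 within 1.5-fold of the untreated level, with medians of −1.27 and −0.04. Without library 3 of the sham knockdown, 1102 of the genes that rose fell short of the irradiated level and 860 of those that fell stood above it. Without library 3 irradiation raised 29 p53 targets, 18 NF-kB targets, 20 secreted factors and 17 interferon-stimulated genes, and lowered 30 mitosis and 25 replication genes, against 16.8% raised and 13.3% lowered over all genes tested there.

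**Figure D1:**
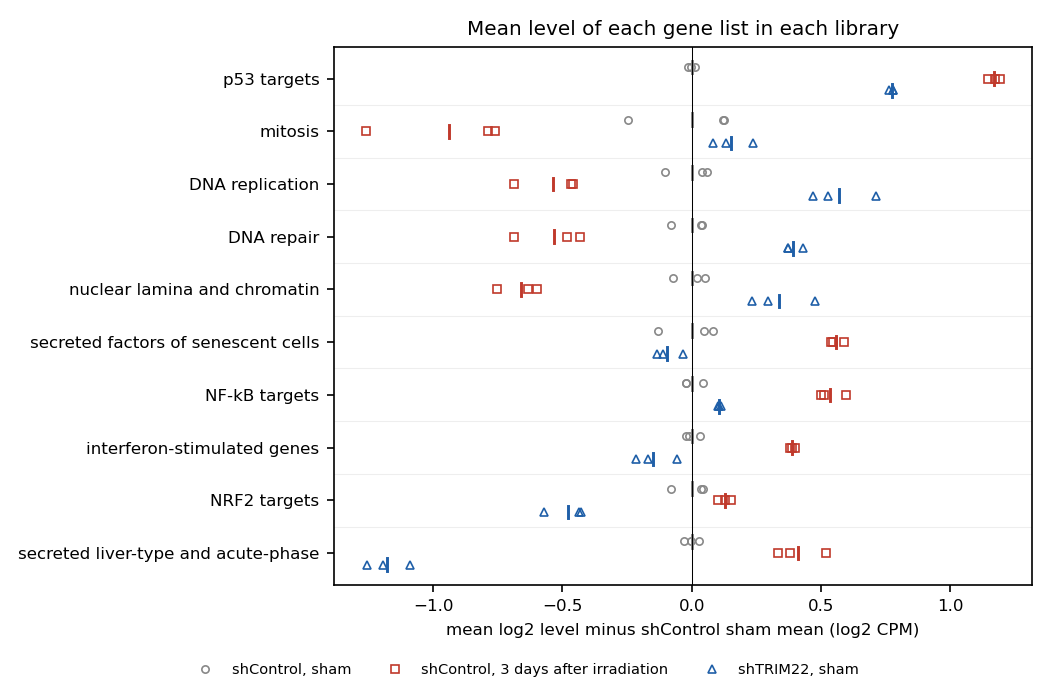
Mean level of 10 gene lists in each library, as log2 CPM minus the mean of the 3 untreated control libraries. Grey circles are untreated control, red squares irradiated control and blue triangles sham knockdown libraries, and bars are the means of 3. The p53 targets of the knockdown lie between the untreated and the irradiated level. The mean of its NF-kB targets lies slightly above the untreated level and includes SAA1 and SAA2, which lie far above it, while the median member lies slightly below. Its replication genes lie above the untreated level, and its mitosis genes and secreted factors overlap it. The interferon-stimulated genes of the knockdown lie narrowly below the untreated level, and its NRF2 and liver-type genes lie further below.

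The shape of the answer is visible in the mean levels of whole lists, on the log2 scale relative to the untreated control. The 30 p53 targets averaged 1.18, 1.15 and 1.19 in the irradiated control libraries and 0.78, 0.76 and 0.78 in the sham knockdown libraries. The 30 mitosis genes averaged −0.76, −0.79 and −1.26 after irradiation and 0.13, 0.08 and 0.24 in the knockdown. The 30 replication genes averaged −0.46, −0.47 and −0.69 after irradiation and 0.53, 0.47 and 0.71 in the knockdown. The p53 targets of the knockdown thus lay on the irradiated side of the untreated control, at a lower level. The replication genes lay on the other side, and the mitosis genes overlapped the untreated libraries, which averaged 0.12, 0.12 and −0.25. Secreted factors of senescent cells averaged 0.59, 0.55 and 0.54 after irradiation and −0.11, −0.04 and −0.13 in the knockdown, overlapping the −0.13 to 0.08 of untreated cells. NF-kB targets averaged 0.60, 0.51 and 0.50 after irradiation and 0.10, 0.11 and 0.11 in the knockdown, above the −0.02 to 0.04 of untreated cells. That mean includes SAA1, at 3.07, 3.08 and 3.43 in the knockdown, and its near copy SAA2, at 3.38, 3.06 and 3.28. The median difference of the NF-kB targets from the untreated control was −0.07, with 6 members higher and 10 lower in the knockdown. Interferon-stimulated genes averaged 0.40, 0.38 and 0.39 after irradiation and −0.06, −0.17 and −0.22 in the knockdown, narrowly below the −0.02 to 0.03 of untreated cells. For every list named in this paragraph the 3 libraries of the knockdown did not overlap those of the irradiated control.

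The p53 targets of the unirradiated knockdown stood, by their median, between the untreated and the irradiated level. All 30 listed genes were tested. Irradiation raised 29 of them in control cells, with a median log2 change of 1.10, and 24 were higher in the sham knockdown than in the untreated control, with a median of 0.84. That count of 24 includes library 3 of the knockdown, which departed from libraries 1 and 2 in some members. Relative to untreated cells FDXR stood at 1.15, 0.99 and 2.21 in libraries 1, 2 and 3, and DDB2 at 0.06, 0.11 and −0.18 (both described below). In the direct comparison 17 were lower in the knockdown, 6 were higher and 11 lay within 1.5-fold of the irradiated level, with a median of −0.44. The share within 1.5-fold was close to the 35.1% over all genes. Without library 3 of the sham knockdown these counts were 18 lower and 7 higher and the median was −0.41. CDKN1A (chromosome 6, 36676460 to 36687339), which encodes p21, stood at 162, 164 and 160 CPM in untreated, 578, 603 and 617 CPM in irradiated and 355, 365 and 365 CPM in sham knockdown cells. No library of a group reached the level of the next, and the knockdown was 2.23-fold above untreated and 1.66-fold below irradiated cells (log2 −0.73 ± 0.05, adjusted p = 5.53e-09). MDM2, the ubiquitin ligase that degrades p53, behaved alike, at 163, 151 and 144 CPM against 316, 317 and 296 CPM after irradiation and 85.1, 85.9 and 85.5 CPM in untreated cells (log2 −1.02 ± 0.06, adjusted p = 9.87e-10). RRM2B, a p53-inducible subunit of ribonucleotide reductase, stood nearer the irradiated level, with a log2 difference of −0.43 ± 0.07 (adjusted p = 4.34e-05).

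Among the p53 targets, SESN1 and ZMAT3 stood at the irradiated level in the knockdown. SESN1, a sestrin that restrains mTORC1, stood at 22.1, 19.6 and 23.4 CPM in the sham knockdown and at 22.6, 20.7 and 21.8 CPM in the irradiated control, against 6.23, 6.64 and 6.64 CPM in untreated cells. The ranges overlapped, and the log2 difference was 0.00 ± 0.09 (adjusted p = 0.997). ZMAT3, an RNA-binding zinc finger protein, stood at 74.1, 75.9 and 63.5 CPM against 75.0, 76.6 and 72.0 CPM, with a log2 difference of −0.07 ± 0.08 (adjusted p = 0.513), and at 23.2 to 26.3 CPM in untreated cells. The 95% intervals of both lay within 1.5-fold. The p53 targets of nucleotide excision repair were at the other end. DDB2, the damage sensor subunit, stood at 102, 109 and 114 CPM after irradiation and at 43.7, 45.2 and 37.1 CPM in the knockdown, near the 39.7 to 43.2 CPM of untreated cells, and the log2 difference from irradiated cells was −1.37 ± 0.09 (adjusted p = 1.80e-09). XPC, the lesion recognition factor, was lower in the knockdown (23.5, 22.7 and 30.8 CPM) than in irradiated cells (59.8, 57.7 and 59.3 CPM; log2 −1.20 ± 0.10, adjusted p = 3.85e-08) and than in untreated cells (log2 −0.42), though 30.4% of its exon length overlaps other genes, LSM3 among them. FDXR, a mitochondrial reductase named here after its values were seen, differed between libraries of the knockdown, which stood at 49.9, 44.5 and 104 CPM, with the irradiated control at 89.0, 82.5 and 85.6 CPM. With all libraries the log2 difference was −0.38 (adjusted p = 0.257), and without library 3 it was −0.86 (adjusted p = 1.1e-14).

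**Figure D2:**
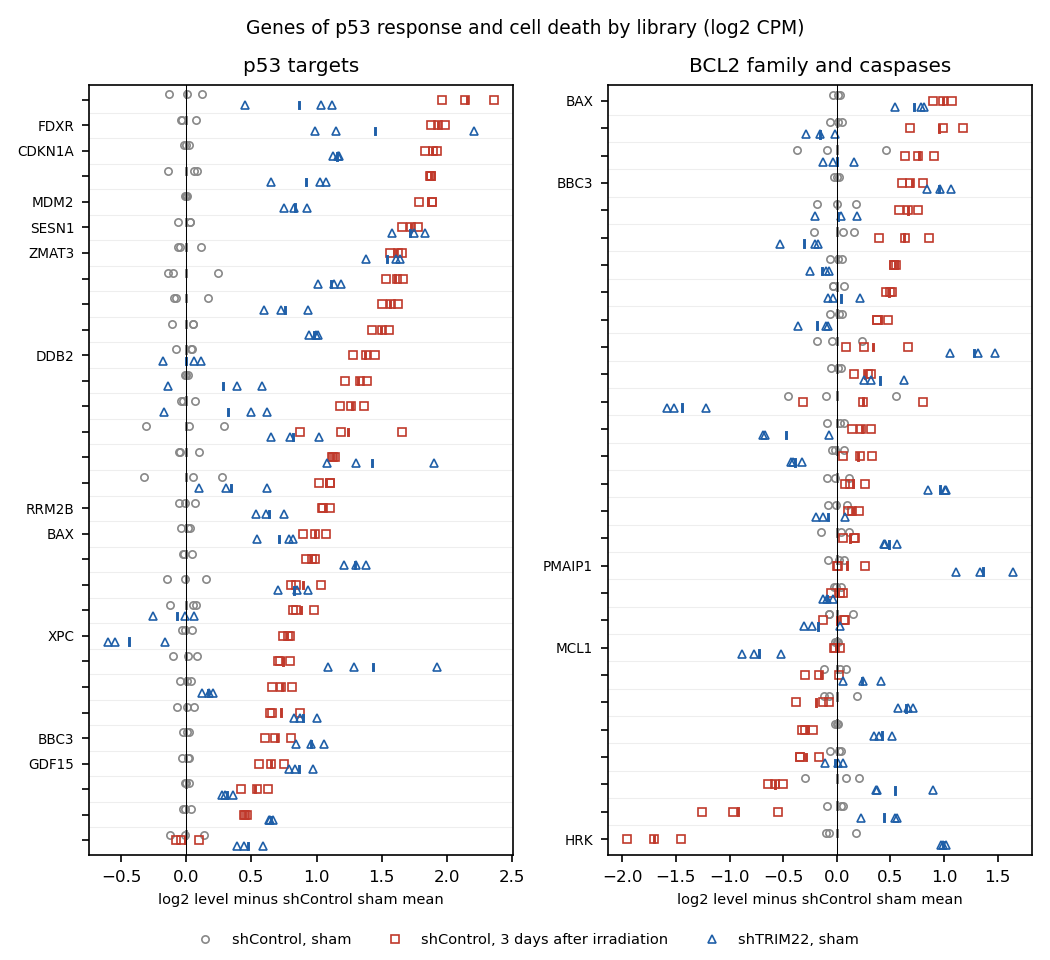
Log2 CPM minus the untreated control mean for p53 targets and genes of the BCL2 family and caspases, 1 gene a row, labelled where the text names it and ordered by level after irradiation. Grey circles are untreated control, red squares irradiated control and blue triangles sham knockdown libraries, and bars are means of 3. SESN1 and ZMAT3 of the knockdown coincide with the irradiated libraries, MDM2 and CDKN1A lie between the untreated and irradiated libraries, and DDB2 lies at the untreated level, while HRK is on opposite sides of the untreated control in the compared groups.

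Genes of apoptosis went both ways between the groups. Of 29 BCL2 family and caspase genes 13 were higher and 12 lower in the sham knockdown, and 8 lay within 1.5-fold; without library 3 the counts were 13 higher and 11 lower. BAX, which permeabilises the mitochondrial outer membrane, stood at 138, 141 and 116 CPM against 149, 158 and 168 CPM in irradiated and 77.8 to 81.4 CPM in untreated cells (log2 −0.27 ± 0.07, adjusted p = 0.00607). BBC3, which encodes the BH3-only protein PUMA, was slightly higher in the knockdown (log2 0.26 ± 0.09, adjusted p = 0.0204), a call lost in 3 of 13 alternative settings. HRK, a BH3-only protein, stood at 11.4, 11.2 and 11 CPM in the sham knockdown, at 1.34, 1.63 and 1.95 CPM in the irradiated control and at 5.28, 6.33 and 5.18 CPM in untreated cells. It was thus 6.75-fold higher than in irradiated cells, where it had fallen (log2 2.76 ± 0.20, adjusted p = 1.05e-08). PMAIP1, which encodes NOXA, was higher in the knockdown (log2 1.28 ± 0.11, adjusted p = 1.11e-07). MCL1, an antiapoptotic partner of NOXA, was lower (220, 205 and 262 CPM against 373, 384 and 371 CPM; log2 −0.71 ± 0.07, adjusted p = 4.61e-07), with untreated cells at 373 to 381 CPM.

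The fall of cell-cycle genes that followed irradiation in control cells was not seen in the unirradiated knockdown cells. Of 30 mitosis genes 29 were higher in the sham knockdown than in the irradiated control and none lower, with a median log2 difference of 1.05, against 26.1% higher and a median of 0.00 over all genes. Of 30 replication genes 29 were higher and 1 was lower, with a median of 1.04. Irradiation had lowered 29 mitosis and 19 replication genes in control cells, with medians of −0.91 and −0.61. Against the untreated control the knockdown was higher in 23 replication genes and lower in none (median 0.56), and higher in 7 mitosis genes and lower in 1 (median 0.18). Without library 3 of the sham knockdown 27 mitosis and 29 replication genes were higher. The mitosis genes lost were TPX2, a spindle assembly factor, at adjusted p = 0.063, and PLK1, a mitotic kinase, at adjusted p = 0.057, both named for this after their values were seen.

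Promoters of a mitosis gene and of a replication gene are shown because the members of these lists moved together. They run from 250 bases before to 50 after the RefSeq start (GRCh38.p14), 5′ to 3′ on the gene's strand. CDC20 is at chr1:43358731-43359030, plus strand, with its matches to the CHR (TTTGAA or TTCGAA on either strand) in capitals. GINS2 is at chr16:85688905-85689204, minus strand, with its match to an E2F site (TTTGGCGC, TTTCCCGC or TTTCGCGC on either strand) in capitals.
CDC20: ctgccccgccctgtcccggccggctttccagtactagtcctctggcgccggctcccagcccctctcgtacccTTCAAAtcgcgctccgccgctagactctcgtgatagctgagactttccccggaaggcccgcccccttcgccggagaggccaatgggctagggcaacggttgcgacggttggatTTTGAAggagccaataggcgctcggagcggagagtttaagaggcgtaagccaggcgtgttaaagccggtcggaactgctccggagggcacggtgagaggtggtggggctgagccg
GINS2: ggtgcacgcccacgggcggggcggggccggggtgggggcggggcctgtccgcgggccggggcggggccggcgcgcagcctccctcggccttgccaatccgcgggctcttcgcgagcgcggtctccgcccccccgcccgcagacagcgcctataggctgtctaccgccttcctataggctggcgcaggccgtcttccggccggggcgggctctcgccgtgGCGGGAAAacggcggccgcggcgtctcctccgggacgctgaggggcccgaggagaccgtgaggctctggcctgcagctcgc
A CHR stood in 17 of 25 mitosis promoters found in the table (68.0%), in 1 of 27 replication promoters (3.70%) and in 16.6% of all 27305 promoters of that length. An E2F site stood in 16 of 27 replication promoters (59.3%), in 2 of 25 mitosis promoters (8%) and in 2.79% of all. The matches are descriptions of letters and show no binding.

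Most replication genes of the knockdown exceeded both controls. GINS2 (chromosome 16, 85676198 to 85690073), a subunit of the replicative helicase, stood at 14.1, 13.2 and 14.9 CPM in the sham knockdown, at 1.84, 2.15 and 2.48 CPM in the irradiated control and at 6.67, 6.96 and 5.29 CPM in untreated cells. The 3 groups did not overlap, and the knockdown was 6.47-fold above the irradiated control (log2 2.69 ± 0.18, adjusted p = 2.71e-09). ORC6, a subunit of the origin recognition complex, stood at 19.2, 18.8 and 21.2 CPM against 5.87, 5.66 and 5.38 CPM after irradiation and 10.2 to 12.9 CPM untreated (log2 1.81 ± 0.12, adjusted p = 3.23e-09). The helicase subunits MCM4 and MCM6 were higher by 1.02 ± 0.08 and 1.24 ± 0.10 on the log2 scale. PCNA, the sliding clamp of the polymerases and also a p53 target, was the replication gene that went the other way. It stood at 385, 354 and 438 CPM in the knockdown and at 489, 483 and 536 CPM in the irradiated control (log2 −0.36 ± 0.07, adjusted p = 0.000706), with untreated cells at 370 to 371 CPM.

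Mitosis genes of the knockdown were mostly not separated from untreated cells, as given by the counts above. CDC20 (chromosome 1, 43358955 to 43363203), an activator of the anaphase-promoting complex, stood at 23.9, 23.5 and 26.9 CPM in the sham knockdown, at 9.55, 7.75 and 5.44 CPM in the irradiated control and at 17.5, 18.3 and 14.0 CPM in untreated cells. All knockdown libraries were above all others, with a log2 difference from the irradiated control of 1.72 ± 0.17 (adjusted p = 3.82e-07). CDK1, the mitotic kinase, was higher by 1.13 ± 0.10 on the log2 scale (48.6, 42.8 and 48.9 CPM against 22.4, 22.7 and 19.1 CPM, adjusted p = 1.21e-07). MAD2L1, of the spindle checkpoint, and ANLN, a scaffold of the cytokinetic ring, were higher by 1.13 ± 0.12 and 1.49 ± 0.16. KIF23, a kinesin of the central spindle, was the member at the irradiated level. It stood at 36.4, 33.7 and 37.4 CPM in the knockdown and at 38.0, 41.7 and 29 CPM in the irradiated control, with overlapping ranges, and at 44.6 to 54.6 CPM in untreated cells (log2 −0.01 ± 0.12, adjusted p = 0.931).

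**Figure D3:**
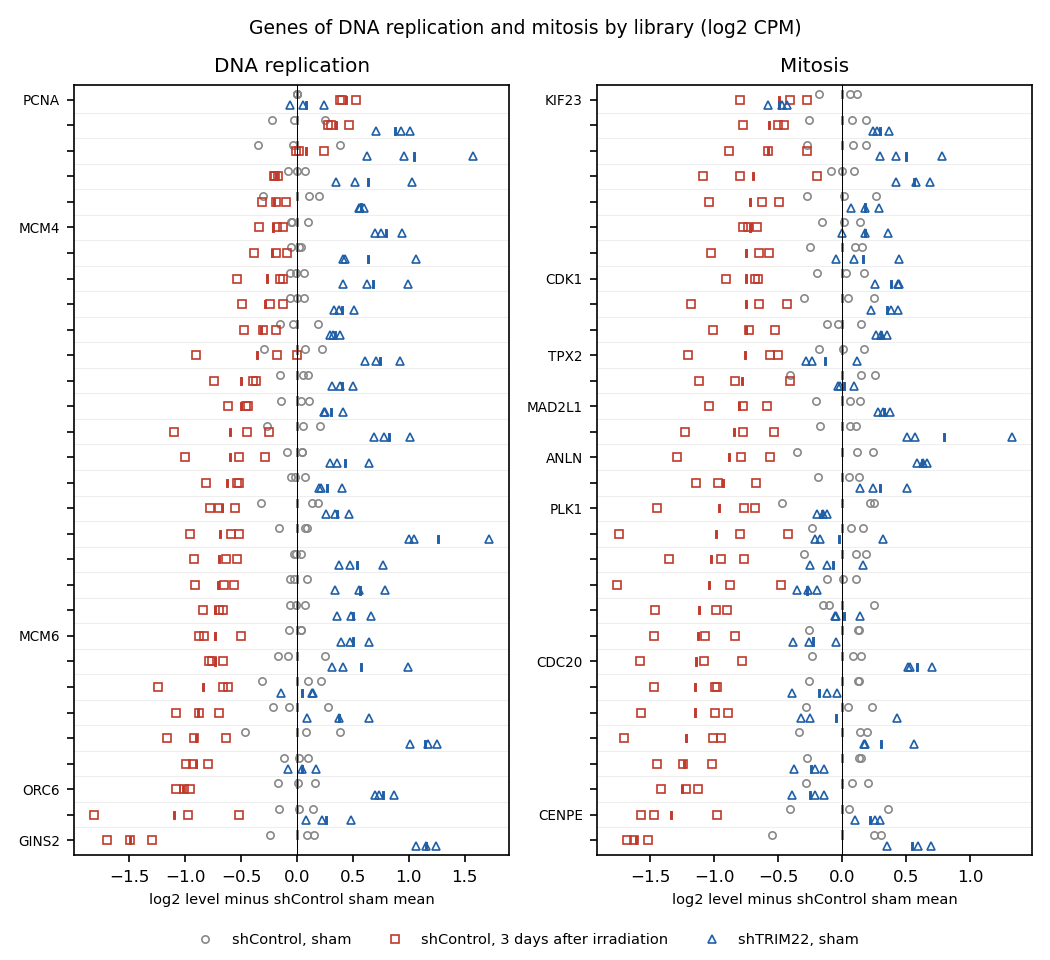
Log2 CPM minus the untreated control mean for genes of DNA replication and of mitosis, 1 gene a row, labelled where the text names it and ordered by level after irradiation. Grey circles are untreated control, red squares irradiated control and blue triangles sham knockdown libraries, and bars are means of 3. The irradiated and knockdown libraries separate for nearly all genes, with PCNA reversed and KIF23 overlapping.

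Regulators of these genes showed the same direction. Of 23 E2F and RB regulators 17 were higher and 2 lower in the sham knockdown, with a median log2 difference of 0.54, and without library 3 the counts were 18 and 3. MYBL2, the MYB protein that switches DREAM targets on, stood at 52.4, 53.7 and 70.8 CPM against 14.2, 12.0 and 10.6 CPM after irradiation (log2 2.27 ± 0.16, adjusted p = 1.78e-08), with untreated cells at 24.3 to 34.0 CPM. E2F1 and E2F2, activators of S-phase genes, were higher by 1.36 ± 0.14 and 1.72 ± 0.20, and CDK2, the S-phase kinase, by 1.11 ± 0.10. CCND1, the cyclin D1 gene, rose after irradiation and stood higher still in the knockdown (339, 322 and 396 CPM against 272, 269 and 249 CPM; log2 0.42 ± 0.08, adjusted p = 0.000199). Cyclin D3 depended on library 3: CCND3 stood at 380, 362 and 519 CPM against 423, 431 and 400 CPM, a log2 difference of 0.01 with all libraries and of −0.17 without library 3 (adjusted p = 0.00894). Of 8 CDK inhibitors 6 were tested, and 1 was higher and 1 lower in the knockdown. CDKN1B, which encodes p27, was the higher (85.1, 81.8 and 79.0 CPM against 51.4, 51.8 and 63.7 CPM; log2 0.56 ± 0.08, adjusted p = 1.96e-05) and CDKN1A the lower. Without library 3, 2 inhibitors were higher. CDKN2C, which encodes p18, had a log2 difference of 0.06 ± 0.18 (adjusted p = 0.798).

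DNA repair genes and the chromatin and lamina genes of senescent cells went with the replication genes. Of 27 repair genes tested 21 were higher and 1 lower in the sham knockdown (median log2 1.13), and without library 3 none was lower. Irradiation had lowered 14 of the 27 and raised none, and without library 3 of the sham knockdown it lowered 16 and raised 1. BLM, a helicase of recombination repair, stood at 16.9, 16.2 and 18.9 CPM against 4.39, 4.10 and 4.02 CPM after irradiation and 9.57 to 11.8 CPM untreated (log2 2.05 ± 0.19, adjusted p = 1.29e-07). BRCA1, of the same pathway, was 3.13-fold higher than in irradiated cells (log2 1.65 ± 0.15, adjusted p = 1.41e-07). FANCI, of the Fanconi pathway, was higher by 1.26 ± 0.11 on the log2 scale. All 15 lamina and chromatin genes were higher in the knockdown, with a median of 0.93, and 14 without library 3. Irradiation had instead lowered 12, and 13 without library 3. UHRF1 (chromosome 19, 4903080 to 4962154), which recruits the maintenance DNA methyltransferase, stood at 44.5, 45.3 and 50.5 CPM against 13.0, 14.4 and 12.3 CPM after irradiation and 22.4 to 23.1 CPM untreated, without overlap (log2 1.82 ± 0.10, adjusted p = 4.25e-10). DNMT1, that methyltransferase, was higher by 0.93 ± 0.07, HMGB2, a chromatin protein lost in senescent cells, by 1.35 ± 0.10, and LMNB2, a B-type lamin, by 1.23 ± 0.10.

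Many inflammatory genes that rose after irradiation stood lower in the knockdown, some of them below the untreated level, while others were higher than in untreated cells. Of 26 NF-kB targets 13 were lower and 3 higher in the sham knockdown (median log2 −0.34, against 25.2% lower and a median of 0.00 over all genes), and without library 3 the counts were 15 and 4. Irradiation had raised 16 of them and lowered none, and against the untreated control 6 were higher and 10 lower in the knockdown (median −0.07). Among the higher were the acute-phase gene SAA1, at 16.7, 16.9 and 21.5 CPM against 4.67 to 7.01 CPM after irradiation and 1.69 to 2.26 CPM untreated (log2 1.70 ± 0.16, adjusted p = 1.68e-07), and LCN2, an iron-binding defence protein, at 61.9, 70.0 and 36.6 CPM against 85.0 to 95.9 CPM after irradiation and 29 to 32.1 CPM untreated. Both were named after their values were seen, and SAA1 shares reads with its near copy SAA2. Of 30 secreted factors of senescent cells 27 were tested, of which 14 were lower and 4 higher (median −0.84), 15 and 3 without library 3. Some genes are on both lists. Irradiation had raised 18 of the secreted factors, and against the untreated control 5 were higher and 10 lower in the knockdown (median 0.07).

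Promoters of NF-kB targets and of interferon-stimulated genes are shown for members that stood low in the knockdown and for IFIT1, which did not (RefSeq, GRCh38.p14, 250 bases before to 50 after the start, 5′ to 3′). CXCL1 is at chr4:73869143-73869442 and TNFAIP3 at chr6:137867009-137867308, both on the plus strand, with matches to the NF-kB consensus site in capitals. The 2 matches of CXCL1 lie on opposite strands and overlap. IFIT1 is at chr10:89392373-89392672 and DTX3L at chr3:122564088-122564387, both on the plus strand, with matches to the interferon-stimulated response element (ISRE, TTTC, any 2 bases and TTTC, on either strand) in capitals.
CXCL1: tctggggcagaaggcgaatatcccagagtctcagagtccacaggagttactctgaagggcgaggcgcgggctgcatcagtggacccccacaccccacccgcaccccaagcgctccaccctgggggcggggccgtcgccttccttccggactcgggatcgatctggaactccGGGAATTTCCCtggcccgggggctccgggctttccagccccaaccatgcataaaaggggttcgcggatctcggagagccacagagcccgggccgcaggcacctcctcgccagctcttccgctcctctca
TNFAIP3: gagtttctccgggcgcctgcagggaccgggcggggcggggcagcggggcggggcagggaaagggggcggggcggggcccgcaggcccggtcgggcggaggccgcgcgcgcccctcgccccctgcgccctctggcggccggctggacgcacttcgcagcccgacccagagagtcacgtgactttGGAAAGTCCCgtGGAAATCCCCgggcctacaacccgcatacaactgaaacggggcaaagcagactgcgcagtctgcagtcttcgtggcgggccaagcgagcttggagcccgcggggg
IFIT1: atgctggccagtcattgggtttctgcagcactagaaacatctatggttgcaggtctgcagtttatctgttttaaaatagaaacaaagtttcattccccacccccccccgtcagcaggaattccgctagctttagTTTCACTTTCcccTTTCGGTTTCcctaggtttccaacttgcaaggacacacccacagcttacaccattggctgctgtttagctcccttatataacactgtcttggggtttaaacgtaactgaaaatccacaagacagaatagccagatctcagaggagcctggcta
DTX3L: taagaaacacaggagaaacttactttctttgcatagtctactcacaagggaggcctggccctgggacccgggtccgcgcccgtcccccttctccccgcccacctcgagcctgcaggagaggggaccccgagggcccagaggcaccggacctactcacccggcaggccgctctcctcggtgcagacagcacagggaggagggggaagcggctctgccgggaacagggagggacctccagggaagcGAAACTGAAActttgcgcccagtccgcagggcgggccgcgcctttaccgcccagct
The NF-kB consensus stood in 13 of 21 promoters of NF-kB targets (61.9%) and in 5.72% of all promoters of that length. The ISRE stood in 17 of 26 promoters of interferon-stimulated genes (65.4%) and in 3.65% of all. The p53 half-site stood in 4 of 25 promoters of p53 targets (16.0%) and in 6.54% of all. No match says only that the letters are not in this window.

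The chemokines CXCL8 and CXCL1, which attract neutrophils, rose after irradiation and were low in the knockdown. CXCL8 (chromosome 4, 73740506 to 73743716) stood at 123, 106 and 98.3 CPM in the sham knockdown, at 387, 381 and 398 CPM in the irradiated control and at 219, 215 and 187 CPM in untreated cells. The 3 groups did not overlap, and the log2 difference between knockdown and irradiated control was −1.83 ± 0.09 (adjusted p = 3.13e-10). CXCL1 stood at 99.2, 93.3 and 76.0 CPM against 253, 256 and 271 CPM (log2 −1.54 ± 0.09, adjusted p = 4.25e-10), just under the 107 to 124 CPM of untreated cells. SOD2, the mitochondrial superoxide dismutase and an NF-kB target, stood at 259, 240 and 278 CPM against 890, 863 and 883 CPM after irradiation and 484 to 493 CPM untreated (log2 −1.76 ± 0.07, adjusted p = 5.04e-12). TNFAIP3, which encodes the NF-kB inhibitor A20, stood at 30.7, 31.3 and 30.1 CPM against 82.4, 81.1 and 79.3 CPM after irradiation and 61.1 to 66.1 CPM untreated (log2 −1.40 ± 0.07, adjusted p = 7.05e-11). All 4 genes were lower in every knockdown library than in any control library. IL11, a cytokine of the IL-6 family, was lower in the knockdown by a log2 difference of −1.24 ± 0.09. GDF15, a stress cytokine that is also a p53 target, stood slightly above the irradiated level (467, 451 and 512 CPM against 384, 409 and 440 CPM; log2 0.21 ± 0.06, adjusted p = 0.0107), a call lost in 2 of 13 alternative settings. TIMP2, a metalloprotease inhibitor named after its values were seen, stood further above it (382, 355 and 432 CPM against 203, 214 and 208 CPM; log2 0.90 ± 0.07, adjusted p = 1.55e-08). CCL20, a chemokine, IGFBP6, an insulin-like growth factor binding protein, and IRF1, a transcription factor, had log2 differences of −0.01 ± 0.17, −0.16 ± 0.12 and −0.12 ± 0.10, none past the threshold.

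Of 34 interferon-stimulated genes 30 were tested, and 17 were lower and 3 higher in the sham knockdown, with or without library 3 (median log2 −0.48). Irradiation had raised 13 of the 30 and lowered 1, and against the untreated control the knockdown was higher in 8 and lower in 8. DTX3L (chromosome 3, 122564238 to 122575203), a ubiquitin ligase partner of PARP9, stood at 16.4, 12.3 and 11.5 CPM in the knockdown, at 42.2, 41.6 and 42.5 CPM after irradiation and at 34.7, 35.2 and 31.2 CPM in untreated cells. It was below all control libraries (log2 −1.65 ± 0.11, adjusted p = 5.06e-09). PARP9 itself was lower by a log2 difference of −0.77 ± 0.10, with 17.8 to 22.7 CPM in the knockdown and 21.0 to 24.3 CPM in untreated cells. DDX58, the RNA sensor RIG-I, was lower too (log2 −1.16 ± 0.14, adjusted p = 4.65e-06). IFIT1, which binds foreign RNA, was a member at the irradiated level. It stood at 8.86, 7.23 and 8.38 CPM in the knockdown and at 8, 7.29 and 7.75 CPM in the irradiated control, against 4.40 to 5.33 CPM in untreated cells (log2 0.09 ± 0.13, adjusted p = 0.588). STAT2 was lower by a small amount (log2 −0.21 ± 0.07, adjusted p = 0.0241), a call lost in 3 of 13 alternative settings.

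**Figure D4:**
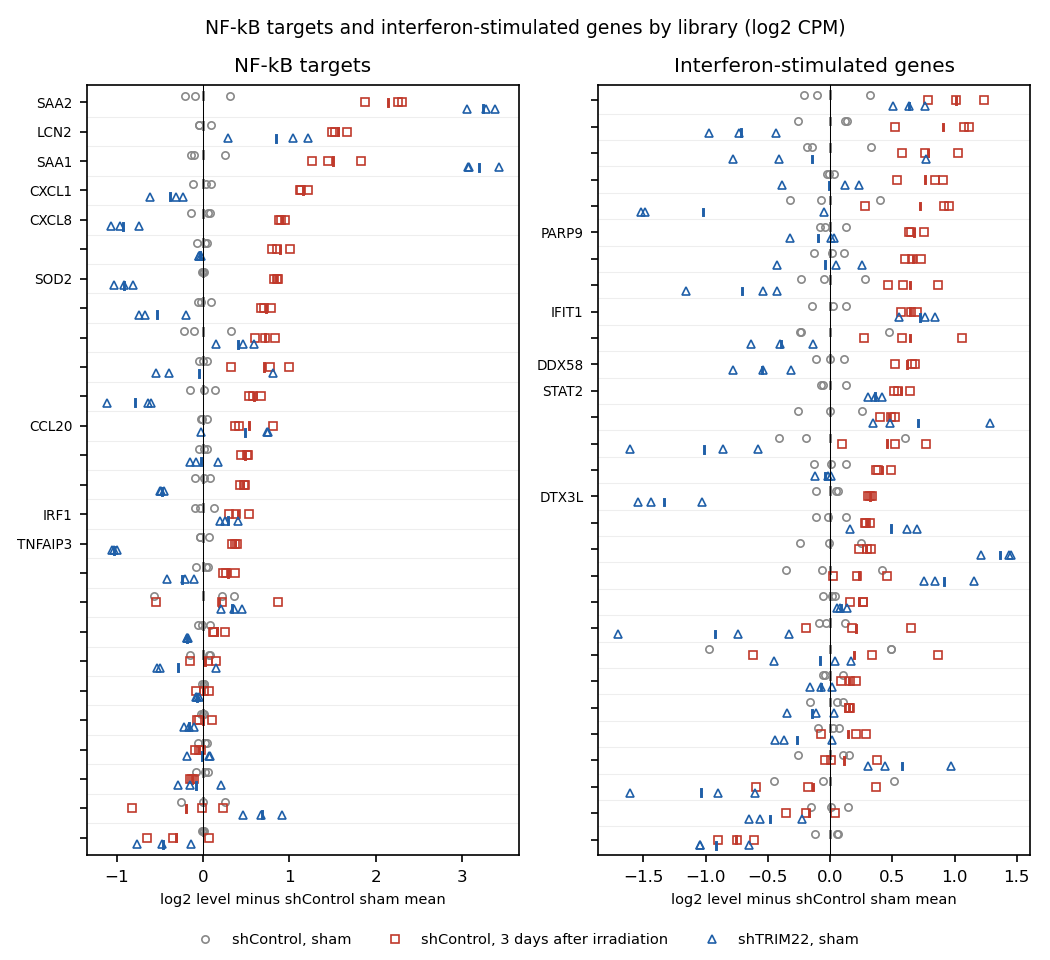
Log2 CPM minus the untreated control mean for NF-kB targets and tested interferon-stimulated genes, 1 gene a row, labelled where the text names it and ordered by level after irradiation. Grey circles are untreated control, red squares irradiated control and blue triangles sham knockdown libraries, and bars are means of 3. CXCL8, SOD2, TNFAIP3 and DTX3L of the knockdown lie below the untreated level, while IFIT1 lies with the irradiated libraries.

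Antigen presentation by MHC class I differed less. Of 18 genes 6 were lower and 4 higher in the knockdown (6 and 3 without library 3), 11 lay within 1.5-fold and the median log2 difference was −0.04, and the shares higher and lower were near those over all genes. B2M, the light chain, stood at 197, 197 and 198 CPM against 246 to 262 CPM after irradiation and 167 to 178 CPM untreated (log2 −0.36 ± 0.05, adjusted p = 2.43e-05). PSMB8, an immunoproteasome subunit, was lower by a log2 difference of −0.84 ± 0.11 and ERAP2, a trimming peptidase, by −1.36 ± 0.20. CALR, a chaperone of the endoplasmic reticulum, was higher (log2 0.34 ± 0.08, adjusted p = 0.00151), and NLRC5, the class I transactivator, had a log2 difference of −0.09 ± 0.14 (adjusted p = 0.607).

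Lists of metabolism and stress also differed between the groups. Of 24 genes in the list for ATF4 and the unfolded protein response 14 were higher and 2 lower in the sham knockdown (median log2 0.47), and without library 3 the counts were 15 and 5. PSAT1, of serine synthesis, stood at 520, 498 and 467 CPM in the knockdown and at 187, 174 and 166 CPM after irradiation, with untreated cells between them at 261 to 294 CPM (2.82-fold higher than after irradiation, adjusted p = 1.73e-10). MTHFD2, of mitochondrial folate metabolism, and CHAC1, a glutathione-degrading enzyme, were also higher, by 1.30 ± 0.08 and 1.91 ± 0.12, and MTHFD2 shares 27.2% of its exon length with SLC4A5. SHMT2, the serine hydroxymethyltransferase of the same folate pathway, went the other way. It stood at 24.0, 27.2 and 25.4 CPM in the knockdown and at 122 to 134 CPM in all control libraries (log2 −2.32 ± 0.12, adjusted p = 3.91e-10). Of 24 sterol genes 14 were higher and 5 lower, with or without library 3 (median 0.31), and 13 lay within 1.5-fold of the irradiated level. Irradiation had raised 12 and lowered 2 of them (median 0.24), and 17 and 2 without library 3. Against the untreated control 19 were higher and 2 lower in the knockdown (median 0.46), the same direction as after irradiation. In the direct comparison SQLE, an enzyme of cholesterol synthesis, was higher by 0.61 ± 0.05 on the log2 scale. HMGCS1, also of that pathway, was lower by a log2 difference of −0.31 ± 0.07.

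The remaining stress lists were mixed. Of 26 hypoxia and glycolysis genes 11 were lower, 5 higher and 14 within 1.5-fold (median −0.13), and without library 3, 14 were lower and 4 higher. The glucose transporter gene SLC2A1 was higher (log2 0.75 ± 0.07, adjusted p = 3.05e-07), as was ADM, which encodes the vasodilator peptide adrenomedullin (1.06 ± 0.11), and PGK1, of glycolysis, was lower (−0.56 ± 0.06). Of 28 autophagy and lysosome genes 11 were higher and 11 lower, and 13 and 12 without library 3. Irradiation had raised 10 of them and lowered none (median 0.14), and 14 and none without library 3. Against the untreated control 17 were higher and 5 lower in the knockdown (median 0.34). TFEB, the master regulator of lysosomal genes, stood at 2.23, 3.22 and 3.40 CPM against 7.57, 8.85 and 10.2 CPM after irradiation (log2 −1.60 ± 0.19, adjusted p = 3.20e-06). The lysosomal enzyme gene NEU1 was higher than after irradiation by 0.56 on the log2 scale. Of 28 cytosolic ribosomal protein genes 16 were higher and 4 lower (18 and 5 without library 3), with a median of 0.30, but these genes share sequence with many pseudogenes and their counts are uncertain. Of 13 mitochondrially encoded genes none passed in either direction by edgeR with all libraries (median log2 −1.03), 2 were lower at an unadjusted p of 0.05 and 5 by DESeq2, and 9 were lower without library 3 (median −0.56), whose mitochondrial share stood apart.

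Several lists stood below both control groups. The genes of secreted liver-type and acute-phase proteins, which A549 cells make, were the list that lay farthest below. The acute-phase genes SAA1 and SAA2 were counted with the NF-kB targets and are not on this list. Both stood higher in every knockdown library than in any irradiated control library. Of the 27 genes listed 18 were tested, 16 were lower and none higher in the sham knockdown, and the median log2 difference was −1.73, against a median of 0.00 over all genes. Without library 3, 17 were lower. Irradiation raised 10 of them and lowered none, with a median of 0.43, and without library 3 it raised 12 and lowered 1. In the knockdown 15 were below the untreated control, with a median of −1.05. FGB (chromosome 4, 154562956 to 154571086), the fibrinogen beta chain, stood at 122, 122 and 115 CPM in the knockdown, at 408, 400 and 457 CPM after irradiation and at 346, 344 and 339 CPM in untreated cells. The knockdown was well below both control groups (log2 −1.82 ± 0.06, adjusted p = 1.84e-12). ITIH2, a hyaluronan-binding plasma protein, was lower by a log2 difference of −2.28 ± 0.14. APOH, a phospholipid-binding plasma protein, had 3 counts in the 3 knockdown libraries together against 343 in the irradiated control, a ratio of 128 scaled for depth (95% counting interval 43.4 to 623).

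NRF2 targets were lower in the knockdown than in irradiated cells for the most part. Of 25 genes 15 were lower and 6 higher (median log2 −0.53), and 16 and 7 without library 3. Irradiation had raised 8 and lowered 1, and without library 3 of the sham knockdown it raised 10 and lowered 5. ABCC3, a drug efflux pump, stood at 399, 419 and 418 CPM in the sham knockdown against 1366, 1415 and 1448 CPM after irradiation (log2 −1.78 ± 0.06, adjusted p = 1.07e-12). AKR1B10, an aldo-keto reductase, stood at 200, 193 and 204 CPM against 734, 706 and 679 CPM (log2 −1.83 ± 0.07, adjusted p = 5.94e-12). AKR1C1 and AKR1C2, of the same enzyme family, were lower by log2 differences of −1.67 ± 0.09 and −1.81 ± 0.06, and near-identical copies make the division of reads between them uncertain. NQO1, a quinone reductase and a common readout of NRF2, went the other way (log2 0.46 ± 0.06, adjusted p = 3.37e-06). TALDO1, of the pentose phosphate pathway, had a log2 difference of 0.05 with all libraries and of −0.14 without library 3 (adjusted p = 0.0215).

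**Figure D5:**
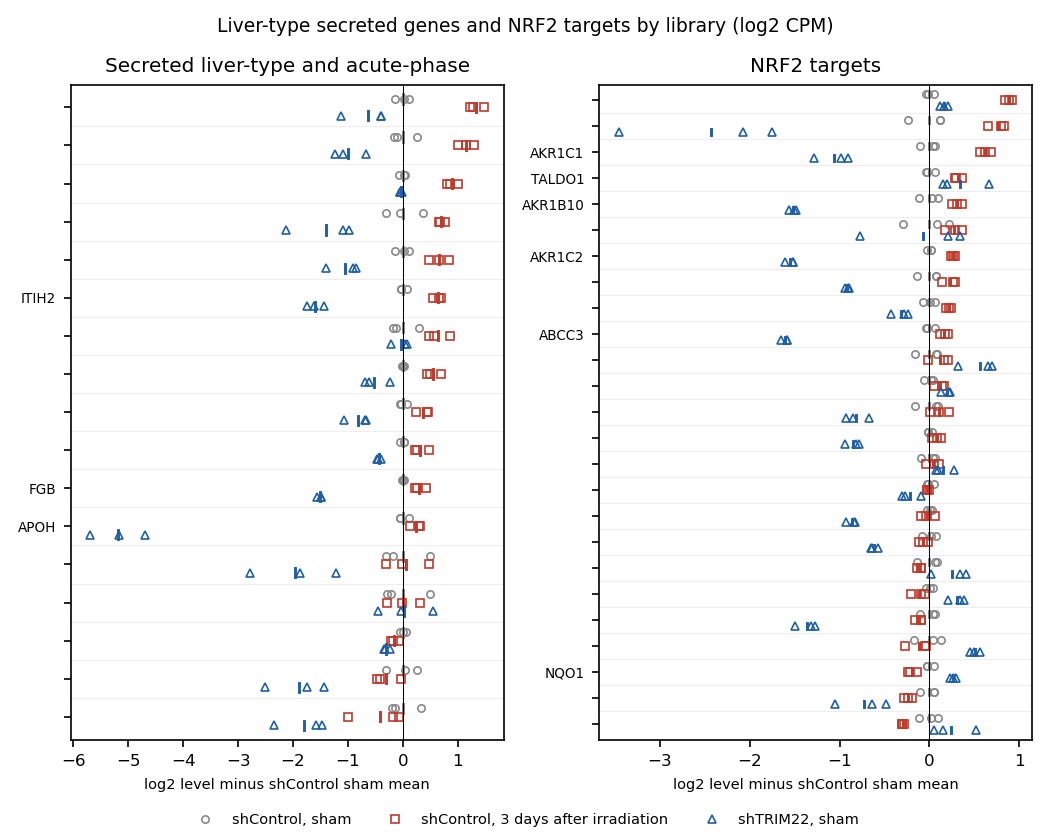
Log2 CPM minus the untreated control mean for tested genes of the secreted liver-type and acute-phase list and for NRF2 targets, 1 gene a row, labelled where the text names it and ordered by level after irradiation. Grey circles are untreated control, red squares irradiated control and blue triangles sham knockdown libraries, and bars are means of 3. FGB and ITIH2 of the knockdown lie below both control groups, as do ABCC3, AKR1B10, AKR1C1 and AKR1C2, whereas NQO1 lies above both.

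Adhesion and matrix genes also separated the groups. CDH1 (chromosome 16, 68737225 to 68835548), which encodes E-cadherin, stood at 44.0, 48.6 and 40.7 CPM in the sham knockdown, at 295, 291 and 276 CPM in the irradiated control and at 227, 218 and 201 CPM in untreated cells. It was 6.47-fold lower than in irradiated cells (log2 −2.69 ± 0.07, adjusted p = 2.76e-13), and CLDN2, a tight junction claudin, was lower as well (log2 −2.32 ± 0.08, adjusted p = 2.77e-12). In contrast EPCAM, an epithelial adhesion molecule, was higher (log2 1.37 ± 0.20, adjusted p = 2.82e-05). Of 15 epithelial genes tested 4 were higher and 4 lower, shares near those over all genes, and 5 and 4 without library 3. Of 24 mesenchymal genes tested 12 were lower and 3 higher (median −0.40), and without library 3 the counts were 13 and 6. FN1, fibronectin, stood at 105, 108 and 82.0 CPM against 534, 548 and 646 CPM (log2 −2.55 ± 0.10, adjusted p = 1.38e-11). TGFBI, a matrix protein induced by TGF-beta, and TGFBR1, a TGF-beta receptor, were lower by log2 differences of −1.75 ± 0.07 and −1.67 ± 0.06. SPARC, of the same list and named after its values were seen, stood higher in the knockdown. Its log2 levels relative to untreated cells were 2.60, 2.57 and 3.14 against 0.53, 1.03 and 1.13 after irradiation. Of 21 immediate early and heat shock genes 7 were higher and 7 lower, with a median of 0.12, and without library 3, 10 were higher and 7 lower. FOS, a subunit of AP-1, stood at 157, 160 and 153 CPM in the knockdown, at 733, 742 and 652 CPM after irradiation and at 819 to 869 CPM untreated (log2 −2.18 ± 0.06, adjusted p = 4.20e-13), and FOSB was lower by −2.48 ± 0.09. KLF2, a zinc finger factor, was higher (54.7, 51.5 and 53.7 CPM against 13.9, 16.0 and 17.0 CPM; log2 1.77 ± 0.09, adjusted p = 8.10e-11). MYC had a log2 difference of 0.16 ± 0.09 (adjusted p = 0.146).

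The protein-coding genes farthest apart were chosen by their values and are a description. After TRIM22 itself, the genes lowest in the knockdown included CA9, a carbonic anhydrase of hypoxic cells, with 0 counts in the 3 sham knockdown libraries against 212 in the irradiated control, which is at least 26.0-fold lower at a floor of 3 counts per library. In untreated cells CA9 stood at 7.76 to 8.93 CPM, and 38.5% of its exon length overlaps ARHGEF39. MUC5AC, a gel-forming airway mucin, stood at 32.7, 31.0 and 20.2 CPM against 408, 448 and 611 CPM after irradiation and 224 to 262 CPM untreated. SLC17A3, an organic anion transporter of kidney, and CRISP3, a secreted glycoprotein, stood at no more than 0.182 and 0.365 CPM in the knockdown libraries. Among the genes highest in the knockdown, DHRS2, a short-chain dehydrogenase, stood at 33.4, 30.5 and 34.6 CPM against 1.70, 2.41 and 1.12 CPM after irradiation and 8.27 to 11.2 CPM untreated. REEP1, which shapes the endoplasmic reticulum, stood at 23.1, 21.8 and 22.6 CPM against 1.84, 1.43 and 1.54 CPM, with untreated cells at 2.01 to 2.36 CPM. RPRM, which encodes the cell-cycle inhibitor reprimo, had 45, 45 and 98 counts in the knockdown libraries, 188 in all, against 3 in the irradiated control, a ratio of 56.0 (95% counting interval 18.9 to 274). CYP1A1, a target of the aryl hydrocarbon receptor, and CCNA1, the germline cyclin A, were also among them, at 3.28 to 5.65 CPM and 5.33 to 6.36 CPM in the knockdown and 0.0708 to 0.456 CPM and 0.236 to 0.708 CPM after irradiation.

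Genes chosen for standing at either level show the extremes and carry no test. Of those that irradiation raised at least 2-fold, FLG, the filaggrin gene, stood at 5.65, 5.71 and 9.96 CPM in the sham knockdown and at 6.23, 7.62 and 6.56 CPM in the irradiated control, against 0.755 to 1.52 CPM untreated. SESN1 and ZMAT3 were in the same set, together with GLDC, the glycine decarboxylase (28.3, 25.5 and 32.0 CPM against 35.2, 36.5 and 38.3 CPM). The genes that rose after irradiation and stood at the untreated level in the knockdown were led by UCN2, a peptide of the corticotropin-releasing family, at 2.28, 1.28 and 1.35 CPM against 6.51, 6.57 and 7.04 CPM after irradiation and 1.45 to 1.88 CPM untreated. GRIN2C, a glutamate receptor subunit, EBI3, a subunit of IL-27 and IL-35, ADAMTS7, a metalloprotease, and COL17A1, a hemidesmosome collagen, followed. Of those that irradiation lowered, MAP1A, a microtubule-associated protein, stood at 3.10, 3.16 and 3.63 CPM in the knockdown and at 2.41, 3.38 and 3.19 CPM in the irradiated control, against 5.70 to 7.67 CPM untreated. RAB39B, a small GTPase, and RASGEF1B, an exchange factor, were at the irradiated level as well. Genes that fell after irradiation and stood at the untreated level in the knockdown included CENPE, a centromere kinesin, at 16.7, 15.0 and 17.1 CPM against 4.95, 7.03 and 4.61 CPM, and BARD1, the partner of BRCA1, at 5.27, 5.47 and 4.57 CPM against 2.26, 1.76 and 1.71 CPM.

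Finally, genes that lay within 1.5-fold between irradiated and untreated control cells, but differed in the knockdown, were chosen by their values as well. NID2, a basement membrane protein that shares 30.0% of its exon length with RTRAF, stood at 209, 214 and 219 CPM in the sham knockdown against 54.3, 54.1 and 58.5 CPM after irradiation and 43.3 to 44.3 CPM untreated. MCAM, a cell adhesion molecule, stood at 17.1, 17.4 and 18.7 CPM against 3.71 to 4.67 CPM over all control libraries. AGR2, a disulfide isomerase of mucus-secreting cells, stood at 17.6, 17.8 and 11.1 CPM against 132, 133 and 153 CPM, and SYT13, an atypical synaptotagmin, at 5.93, 7.30 and 6.21 CPM against 45.6, 43.7 and 45.6 CPM. In these genes the knockdown libraries stood clear of all 6 control libraries, irradiated or not.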

How the data were processed

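RNA of A549 cells was sequenced as poly(A) libraries, per the labels' protocols. The authors deposited whole-number read counts per gene for 12 libraries, with gene identifiers and coordinates equal to GENCODE 29. The submitters' processing notes name DESeq2 1.20.0 and the build hg38. The sources used here name no aligner, counting tool or strandedness, so overlapping genes on opposite strands may share reads.

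From the counts, edgeR 4.0.16 (R 4.3.3) kept 17094 of 58735 genes with filterByExpr (minimum count 10), scaled libraries by TMM and fitted 1 quasi-likelihood model with a mean per group over all 12 libraries. Tests were two-sided and p-values were adjusted by Benjamini-Hochberg over all tested genes, with calls at 0.05. Levels are CPM computed with TMM-scaled library sizes. Errors of log2 differences are standard errors from the fit, and 95% intervals were set against a limit of 1.5-fold. Totals per library limit the precision, since genes with a few counts vary by counting alone, and the counting intervals of ratios and the floors cover counting error only, whereas the intervals of log2 differences include the spread between libraries. The tests were also run on simulated counts, in which few genes changed and no library stood apart. Those settings differ from these data, so no conclusion is drawn from that run here. The 23 gene lists and 5 marker lists, and the comparison itself, were chosen with earlier results of these data known, and no set test was run. Named genes are TRIM22, up to 4 members of each list with the smallest p, up to 3 at the irradiated level, and those with the largest differences of each kind. Other names are marked in the text. Some genes that the rule names are not reported here. Alternatives were DESeq2 1.42.0, other scaling, filters, sample sets and intervals, a replicate block and leaving out 1 library of the groups in a comparison at a time. Library 3 of the sham knockdown was also left out for the comparison of the control groups. The irradiated shTRIM22 libraries were not left out. Whether same-numbered libraries are paired was checked by the correlation of their deviations from group means. In the direct comparison it was −0.009 to 0.008 for same-numbered libraries and −0.013 to 0.013 for the others. In the comparisons with untreated cells it was higher for same-numbered libraries, 0.014 to 0.094 against −0.087 to 0.014. All were small, and the numbers were not taken as pairs.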

Additional observations from a re-analysis of the deposited data

How the results depend on the processing

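The count of genes that differed between the sham knockdown and the irradiated control, 8774, was 8703 with DESeq2, 8784 with DESeq2 size factors, 8848 without the filter on low counts, 7353 with the compared groups alone and 8776 without mitochondrially encoded genes. It was 7732 to 9446 when 1 library of the compared groups was left out. With a replicate block it was 8813, and same-numbered libraries of the 2 compared groups did not correlate more than others. The count of genes changed by irradiation in control cells moved from 3107 to 5224 with its 2 groups alone. It ranged from 2135 to 2355 when 1 library of those groups was left out. It was 5260 without library 3 of the sham knockdown, which widens the shared estimate of the spread (biological coefficient of variation 9.70% with it and 5.46% without). The count of genes within 1.5-fold, 5997, was 1876 at a stricter and 10497 at a looser limit, by construction, and 5355 to 6654 when 1 library was left out. Of 145 named genes past the threshold 139 passed in all 13 alternatives, and BBC3, CDH5, EBP, GDF15, PAX8 and STAT2 did not. Of 37 named genes that did not pass, 11 passed in some. CCND3 and TALDO1 changed sign, from 0.01 to −0.17 and from 0.05 to −0.14, without library 3 of the sham knockdown, with the same values when the 2 compared groups alone were also used. They ranged from −0.17 to 0.11 and from −0.14 to 0.14 when 1 library was left out, and the cause was not tested. Of 54 counts of list members 12 moved by over 1.5 times in some setting. Genes of few counts, such as CA9, APOH and RPRM, are limited by depth, and their fitted fold changes are not bounds.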
